A study of Homo sapiens with 2 samples.

Results

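Apolipoproteins are the proteins on the surface of plasma lipoprotein particles, and 10 of their genes were followed here in the human hepatoma (liver tumour) line HepG2: APOA1, APOA2, APOA4, APOA5, APOB, APOC1, APOC3, APOE, APOH and APOM. The members were taken by gene symbol from a list drawn up with earlier results of these data known, and all 10 were found among the 18417 genes measured. The study compared 2 cultures on Affymetrix microarrays. The control group was 1 array of HepG2 cells kept in MEM medium, and the SiO2-NP group was 1 array of HepG2 cells given 100 mg/L of amorphous silica nanoparticles in MEM for 24 h. Both RNAs (about 300 ng of each) were amplified and biotin-labelled in the same way, and the labels name no particle size, passage or replicate culture. HepG2 is a single tumour-derived line grown on its own, so no other liver cell and no plasma takes part in the cultures.

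Hepatocytes make most circulating apolipoproteins. APOB is the structural protein of very-low-density lipoprotein (VLDL) and is loaded with lipid in the endoplasmic reticulum before secretion. The smaller apolipoproteins exchange between particles, where they bind receptors, switch plasma lipases on or off, or take up cellular cholesterol to form high-density lipoprotein (HDL). Several of their genes lie side by side in the genome: in the RefSeq gene order APOA5, APOA4, APOC3 and APOA1 follow each other on chromosome 11, and APOE and APOC1 do so on chromosome 19.

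The members with the largest difference in each direction, APOA4 and APOA5, are next to each other in that gene order. For this reason the 250 bases before their annotated starts are shown (RefSeq sequence, GRCh38.p14, written 5′ to 3′ in the direction of transcription; both genes lie on the minus strand). The APOA4 window is chr11:116823305-116823554 and the APOA5 window is chr11:116792421-116792670. Capitals mark the letters AGGTCA, a half-site that nuclear receptors read, and CACGTG, an E-box, each searched on both strands.
APOA4: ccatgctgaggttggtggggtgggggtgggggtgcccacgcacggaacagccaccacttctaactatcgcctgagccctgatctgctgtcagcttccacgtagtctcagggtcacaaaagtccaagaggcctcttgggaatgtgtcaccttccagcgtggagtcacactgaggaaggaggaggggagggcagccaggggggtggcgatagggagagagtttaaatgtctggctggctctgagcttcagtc
APOA5: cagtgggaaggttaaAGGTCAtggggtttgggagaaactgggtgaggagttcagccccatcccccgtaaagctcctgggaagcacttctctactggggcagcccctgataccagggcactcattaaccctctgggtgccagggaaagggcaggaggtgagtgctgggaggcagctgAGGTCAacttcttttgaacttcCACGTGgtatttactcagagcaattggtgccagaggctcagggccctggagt
The APOA5 window held AGGTCA at 2 places, from 235 to 230 and from 74 to 69 bases before the start, and CACGTG from 52 to 47 bases before it. The 3 matches do not overlap. The APOA4 window held neither run of letters. Only these exact runs were searched, so variant half-sites in either window were not examined. Of 35116 promoter windows of the same length in RefSeq, 12.1% held AGGTCA and 6.34% held CACGTG. A match is a description of the letters and not a measured binding site. Sequences were found for 7 of the 10 members, and among their windows AGGTCA and CACGTG occurred only in those of APOA5.

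Values are log2 intensities, so a difference of 1 is a 2-fold change, and every difference is SiO2-NP minus control. The brightness of a probe depends on the probe, so levels are compared between arrays and never between genes. The array medians over all 33297 probes were 6.65 (control) and 6.69 (SiO2-NP). The level filter kept the brighter 9209 genes, those with a 2-array mean of at least 7.26, the median over genes; this is not a detection call. Each group held 1 array, so no value below has a replicate error, no test was possible, and "higher" and "lower" describe these 2 arrays. In bulk RNA, fewer cells with a transcript and less of that transcript per cell cannot be told apart.

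The apolipoprotein transcripts were almost level between the control and the exposed cells. None of the 10 members differed by 1.5-fold or more (0.58 on the log2 scale), where 0.391% of the genes above the level filter and 0.700% of all genes did. The absence of calls is therefore near the background and is not a result about the members. At 1.2-fold (0.26 on the log2 scale), 1 of the 10 members was called, APOA4, against 14.7% of all genes, and none of the 9 members above the level filter was, against 10.5% of the genes above it.

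The median difference of the members was -0.03, against 0.01 over all genes and -0.03 over genes above the level filter. Their median absolute difference was 0.09, against 0.11 over all genes and 0.10 over genes above the level filter. The members ran from -0.22 (APOA5) to 0.29 (APOA4), and 8 of the 10 lay within 0.15 of 0. In the deposited values 4 members were above and 6 below the control. Of all genes 52.3% were above the control, and of the genes above the level filter 40.2% were. After quantile normalization of the arrays 7 members were above and 3 below, so the split did not hold across scalings.

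**Figure D1:**
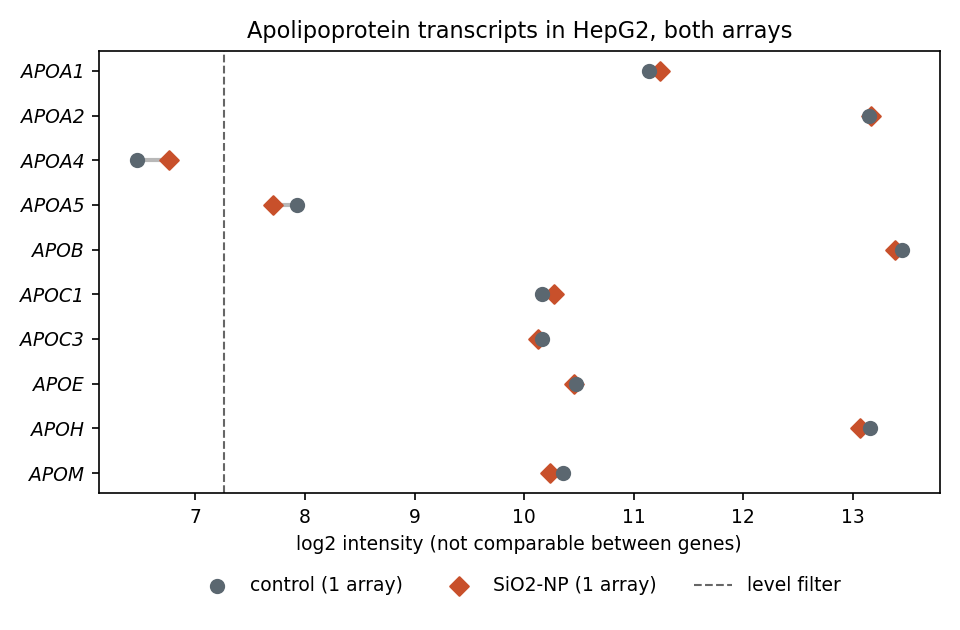
Log2 intensity of each apolipoprotein transcript in the control array (grey circles) and the SiO2-NP array (red diamonds), with probes of a gene averaged and the level filter of 7.26 as a dashed line. The paired marks nearly touch for most genes; the pairs of APOA4 and APOA5 are the widest, and APOA4 alone lies left of the filter.

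Among the HDL proteins, APOA1, the chief protein of HDL and the activator of the plasma enzyme that esterifies cholesterol, was at 11.14 in the control and 11.24 after SiO2-NP, 0.10 higher or 1.07-fold. Its 2 probes gave the same difference, 0.10 each. APOA2, the second most abundant HDL protein, was at 13.15 and 13.16, a difference of 0.01. Both values sat well inside the spread of genes of like level, whose central 95% ran from -0.30 to 0.31 around APOA1 and from -0.32 to 0.24 around APOA2.

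APOM, the HDL carrier of sphingosine-1-phosphate, was at 10.36 in the control and 10.24 after SiO2-NP, a difference of -0.12 or 1.09-fold. It is listed under 3 probes whose values are identical, so they count as 1 measurement. APOM had the second-lowest difference of the members, and 23.2% of the genes of like level lay below it.

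APOB, the protein that each VLDL particle carries in 1 copy, was at 13.45 in the control and 13.39 after SiO2-NP. Its difference was -0.06, or 1.04-fold, and it was 0.01 after quantile normalization, so its direction depended on the scaling.

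APOE, a ligand of the hepatic lipoprotein receptors, was at 10.48 in the control and 10.45 after SiO2-NP. Its difference of -0.02 placed it at percentile 51.0 of the 500 genes of like level, in the middle of them. The sign turned when a running median by level was taken off (0.0031) and with quantile normalization (0.02).

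APOC1 and APOC3 are small exchangeable proteins that slow the clearance of triglyceride-rich particles, APOC3 as an inhibitor of lipoprotein lipase activity. APOC1 was at 10.16 in the control and 10.27 after SiO2-NP, a difference of 0.11 or 1.08-fold. APOC3 was at 10.17 and 10.13, a difference of -0.04 that was 0 once the running median was taken off and 0.01 with quantile normalization. Its 2 probes differed by -0.06 and -0.02. Around APOC1 88.6% of the genes of like level had a lower difference, and around APOC3 50.0% did.

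APOA5, which promotes lipolysis of triglyceride-rich particles and is made by the liver, was at 7.92 in the control and 7.71 after SiO2-NP. It was 1.16-fold lower, a difference of -0.22, and the lowest of the members. Genes of like level ran from -0.40 to 0.26 over their central 95%, and 16.2% of them lay below APOA5. It stayed below the control under each of the 5 other settings run, between -0.23 and -0.18. APOA5 has 1 probe, and the settings of probe choice returned its deposited value. Only the scaling settings moved it.

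APOA4, an apolipoprotein made mainly by the intestine in humans, was at 6.47 in the control and 6.76 after SiO2-NP. It was 1.22-fold higher, a difference of 0.29, and it was the only member below the level filter, in both arrays. Its 2 probes gave 0.26 and 0.32. Dim genes were shifted upward on these arrays: the 500 genes of like level had a median of 0.07 and a central 95% from -0.34 to 0.43, and 88.6% of them lay below APOA4. With the running median at its level taken off, its difference was 0.22.

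APOH, or beta-2-glycoprotein I, a plasma protein that binds anionic phospholipids and is counted among the apolipoproteins by name, was at 13.15 in the control and 13.07 after SiO2-NP. Its difference was -0.08, or 1.06-fold, with 26.3% of the genes of like level below it. APOH, APOM and APOA5 were the 3 members that lay below the control under all 5 other settings, and APOA1, APOA2, APOA4 and APOC1 lay above it under all 5. The settings of probe choice returned the deposited values of APOA2, APOA5, APOC1, APOH and APOM. For those genes only the scaling settings could have changed the side.

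**Figure D2:**
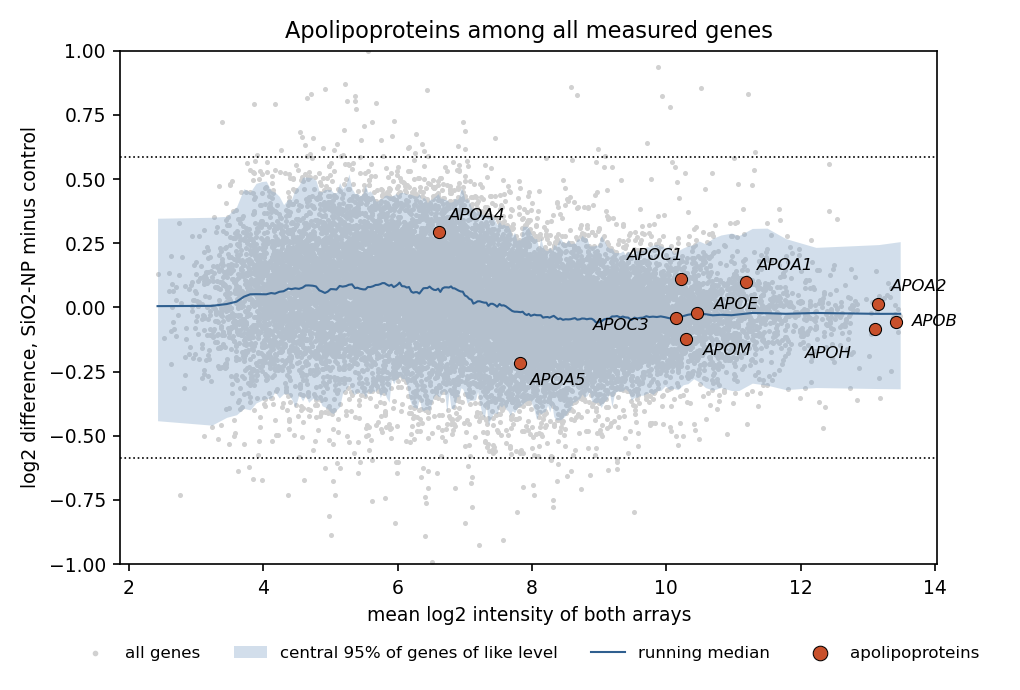
Log2 difference (SiO2-NP minus control) of all genes against their mean log2 intensity, with the running median (line), the central 95% of genes of like level (band), the 1.5-fold thresholds (dotted lines) and the 10 apolipoproteins (red); 12 genes lie beyond the vertical axis. All 10 red points lie inside the band, including APOA4 at 0.29 and APOA5 at -0.22.

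Neighbouring genes were read side by side in the deposited values. In the chromosome 11 group, APOA1 and APOA4 were above the control (0.10 and 0.29), APOA5 was below it (-0.22), and APOC3 was at -0.04. On chromosome 19, APOC1 was at 0.11 and APOE at -0.02. With quantile normalization APOC3 was at 0.01 and APOE at 0.02, so that APOA5 alone lay below the control among the 6 genes, and APOE was also above it (0.0031) with the running median taken off. No interval can be put on these gaps. The agreement of probes gives a rough scale within an array pair: over the 303 genes above the level filter with 2 probes that were not identical, the 2 differences lay a median of 0.10 apart, and 10% of them lay more than 0.33 apart. Among the members with 2 such probes, the gap was 0.00065 for APOA1, 0.04 for APOC3 and 0.06 for APOA4. Whether such paired probes share sequence was not examined, since both carry the same accessions in the annotation.

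**Figure D3:**
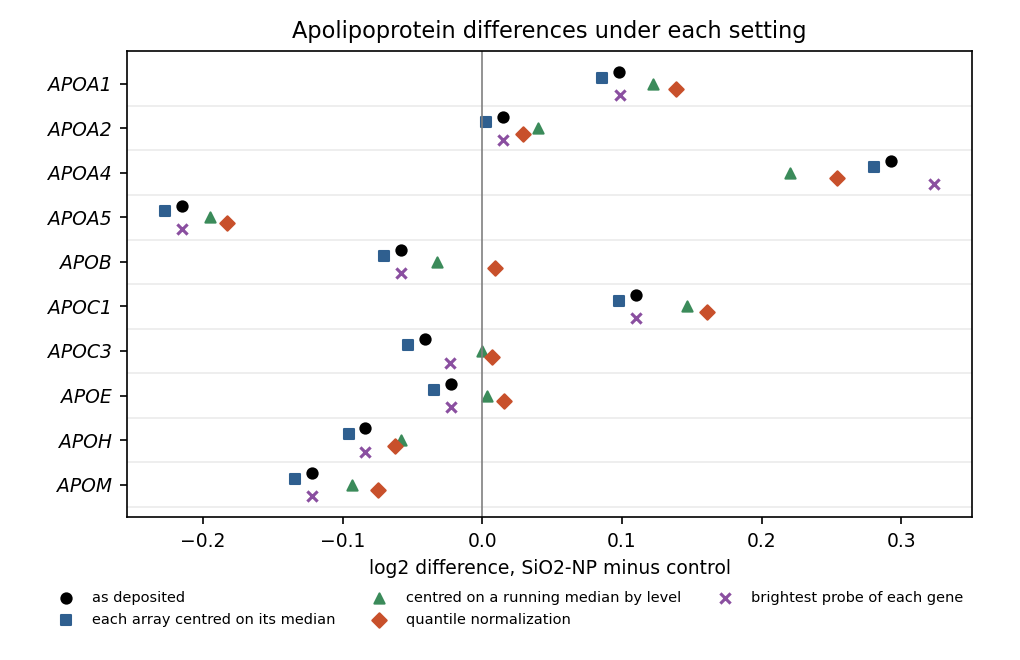
Log2 difference (SiO2-NP minus control) of each apolipoprotein as deposited and under 4 other settings of scaling or probe choice. APOB, APOC3 and APOE reach or cross 0 in at least 1 setting, the other 7 members stay on 1 side, and the largest move of a point is 0.07.

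The hepatocyte character of the cells was checked on the same arrays. All 11 measured hepatocyte and hepatoma markers passed the level filter in the arrays' mean, among them ALB (albumin; 13.50 and 13.41) and AFP (alpha-fetoprotein; 13.06 and 13.04). Their median difference was -0.03, the same as the members'. Of 7 intestinal markers only VIL1 passed the filter (10.92 in both arrays), and 0 of 10 endothelial, 2 of 10 leukocyte (CD68 and LYZ) and 2 of 10 fibroblast and stellate cell markers did. In the leukocyte list PTPRC was at 3.65 and 3.71, while LYZ was at 13.23 and 13.27 and CD68 at 9.61 and 9.49. The leukocyte list was therefore not uniformly dim, and brightness on its own does not rank 1 gene against another.

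Around the members, 1 list of other apolipoproteins and 5 lists of genes that act on them or on cellular lipid were read by role. None held a gene past 1.5-fold among those above the level filter, which is near the background of 0.391% and is not a result about the lists. Of 12 other apolipoproteins measured, 5 passed the filter, with a median of -0.03. CLU (clusterin, or APOJ) was at 11.49 in both arrays, APOL1 at 8.24 and 8.23, and APOL6 at 7.33 and 7.31. APOD, a lipocalin, was below the filter at 5.72 in both. APOO and APOOL, which carry the family name but sit in the mitochondrial inner membrane, had the largest differences of the 5 above the filter, -0.24 and -0.18. Below it, APOL4 and APOL2 differed by 0.31 and 0.20, values named after they were seen.

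Genes that load APOB with lipid and export the particle were level as a list. Of 12 genes, 5 were above the control and 7 below, where 40.2% of all genes over the filter were above it. The list median of -0.01 was 0.01 with the running median taken off and 0.03 with quantile normalization. MTTP, the transfer protein that lipidates nascent APOB, was at 10.44 in the control and 10.19 after SiO2-NP, 1.19-fold lower, beside the -0.06 of APOB itself. SAR1B, the GTPase of the transport vesicles, differed by -0.15, CIDEB, a lipid droplet protein that helps lipidate VLDL, by -0.12, the vesicle coat protein SEC24D by -0.08 and TM6SF2, an endoplasmic reticulum protein of VLDL lipidation, by -0.07. The lipid droplet coat PLIN2 differed by 0.21.

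Receptors that bind or take up apolipoproteins were above the control in 7 of the 8 genes over the filter, with a median of 0.07, where 40.2% of all genes over the filter were above it. LRP8, a receptor of APOE, had the largest difference, at 8.89 in the control and 9.35 after SiO2-NP, 1.37-fold higher. LSR, a receptor of triglyceride-rich particles, differed by 0.18, the VLDL receptor VLDLR and the sorting receptor SORL1 by 0.08 each, the proteoglycan SDC1 by 0.06 and the HDL receptor SCARB1 by 0.05. APOE and APOB, the ligands of such receptors, differed by -0.02 and -0.06 on the same arrays.

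Plasma lipases, lipid transfer proteins and the genes that process them were split, 5 above and 5 below of the 10 over the filter. Of all genes over the filter 40.2% were above the control. The list median was 0.02. LIPG, the endothelial lipase that acts on HDL phospholipid, was at 7.89 and 8.34, 1.37-fold higher. PON3, an HDL-bound lactonase, was at 10.29 and 9.82, 1.38-fold lower, a larger difference than that of APOA1, APOA2 or APOM. The proprotein convertase FURIN differed by 0.36, PLA2G12B by -0.19, the lipase maturation factor LMF1 by 0.10, the convertase PCSK7 by 0.09 and the phospholipid transfer protein PLTP by -0.02.

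Of a list of transporters of cellular sterol and phospholipid, 3 of 6 over the filter were above the control, where 40.2% of all genes over it were. ABCA1, which hands cholesterol to APOA1, was at 9.44 in the control and 9.27 after SiO2-NP, a difference of -0.17, beside the 0.10 of APOA1. The lysosomal cholesterol carriers NPC1 and NPC2 differed by 0.29 and 0.08. ABCG5 and ABCG8, which together export sterol into bile, differed by 0.07 and -0.15, and the bile phospholipid exporter ABCB4 by -0.06. The list median was 0.01, and -0.0047 with each array centred on its median.

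Transcription factors known to act on apolipoprotein genes in liver were above the control in 17 of 21 genes over the filter, where 40.2% of all genes over it were above the control. Their median was 0.07, against -0.03 over all genes above the filter, and it stayed positive under all settings run, between 0.05 and 0.11. The sterol regulators SREBF2 and SREBF1 led them, with SREBF2 at 9.08 and 9.57 (1.41-fold) and SREBF1 at 8.07 and 8.35 (1.22-fold). The nuclear receptors NR1D1, NR2F1, NR0B2 and PPARG differed by 0.21, 0.20, 0.18 and 0.18. The apolipoprotein members had a median of -0.03 on the same arrays. With 1 array a group, whether the lists differ from each other could not be tested.

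**Figure D4:**
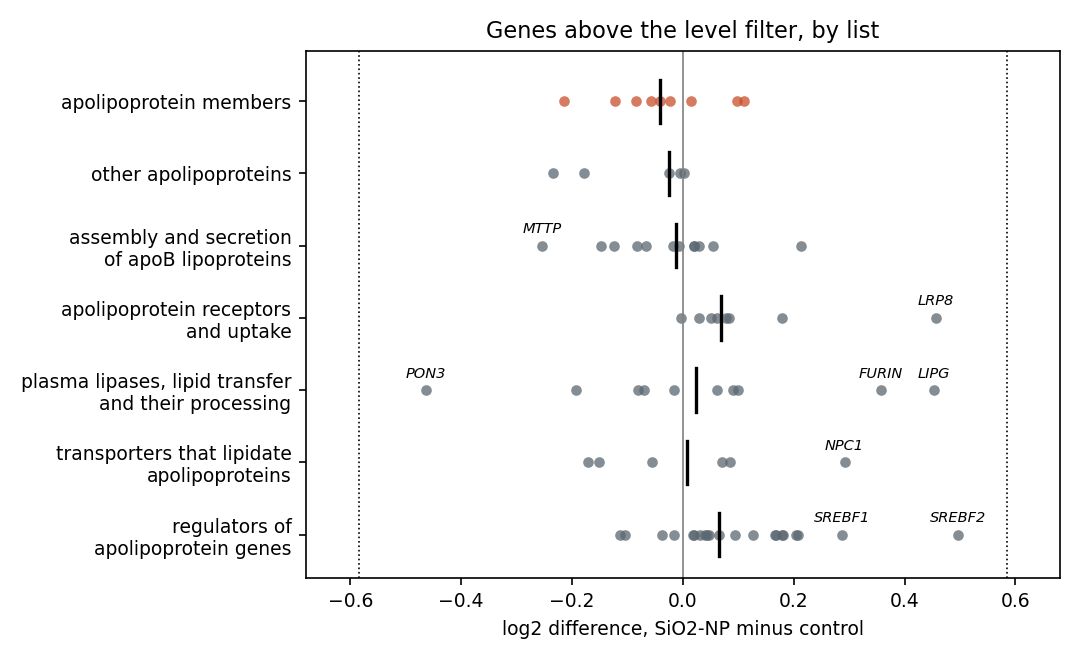
Log2 difference (SiO2-NP minus control) of the genes above the level filter, 1 point a gene, for the 9 apolipoprotein members (red) and the 6 lists of other apolipoproteins and of genes that act on them or on cellular lipid (grey), with list medians as black bars and the 1.5-fold thresholds as dotted lines. The list labelled as transporters that lipidate apolipoproteins also holds bile and lysosomal transporters. No point reaches a dotted line; the members lie between -0.22 and 0.11, while SREBF2, LRP8, LIPG and PON3 lie near 0.5 in size.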

How the data were processed

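The deposited table holds 1 log2 intensity per probe (transcript cluster) on each array, a scale judged from the range of values. Per the submitters' processing notes RMA and MAS5 were used, and which of them made the deposited values is not given in the sources used here. Probes with exactly 1 symbol in the platform annotation (19460 of 33297) were kept and averaged per gene. The 1754 probes with several symbols were left out, so APOC2 and APOC4 have no value. Of the probes kept, 19429 had their gene identifier in RefSeq (GRCh38.p14), and no symbol changed. Neighbouring genes of like level were the 250 dimmer and 250 brighter ones, where that many exist. Alternatives covered scaling, the level filter, the fold threshold and the rules for probes. Named genes were the members, up to 6 genes with the largest absolute difference above the filter of each list, and a few fixed genes. Members, lists and rules were chosen with earlier results of these data known. The count of fold changes was tested on shuffled differences of these arrays with 2-fold changes put in. The running median was tested on a simulated level trend. Changes as small as those of the members were not put in, so recovery of such differences was not tested. The software was Python 3.11.15 with pandas 2.3.3, NumPy 2.4.6 and, for figures, matplotlib 3.10.9.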

Additional observations from a re-analysis of the deposited data

How the results depend on the processing

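No apolipoprotein passed 1.5-fold under any scaling or filter run, and the largest move of a member's difference was 0.07 under the 5 settings tried for single genes. Quantile normalization put 7 members above and 3 below the control, in place of 4 and 6, with APOB, APOC3 and APOE changing sides. The members' median ran from -0.04 to 0.01 and was -0.04 over the members above the level filter or without APOA4 (both added after seeing the data). Against a background of 0.391% past 1.5-fold, a count of 0 among 10 members is not a result about them. Counts of all genes above the filter depended on the threshold, the filter and the scaling. They were 13 higher and 23 lower at 1.5-fold, 1 and 4 at 2-fold, 275 and 693 at 1.2-fold, and 61 and 68 without the level filter. Raising the filter to the 75th percentile left 8 lower, while taking off a running median gave 21 higher and quantile normalization 22. The cause of the last 2 shifts was not tested. The list medians for lipases and for transporters lay at -0.02 with the brightest probe and at -0.0047 after median centring, in place of 0.02 and 0.01. No paired analysis was possible because there was a single array in each group, which also leaves no replicate to omit. The number of arrays limits the precision of these values, and signal over background was not examined.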

Other observations

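The genes in this part were chosen after values on these arrays had been seen. The 6 genes listed for the editing of APOB messenger RNA, a process of the intestine, included 4 above the level filter, which ran from -0.06 to 0.04. APOBEC1, the editing deaminase, was below the level filter at 5.39 in the control and 5.32 after SiO2-NP. Its partner A1CF was at 11.07 and 11.09, RBM47 and SYNCRIP differed by -0.06 and -0.05, and KHSRP by 0.04. CELF2 was below the filter at 4.67 and 4.91, a difference of 0.24.

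APOO and APOOL belong to MICOS, the complex that shapes mitochondrial cristae. Of 10 genes above the filter from this complex and its partners, 8 had a negative difference, with a median of -0.08. APOO and APOOL, whose values had been seen before the list was drawn up, are counted among the 8. Of all genes above the filter, 59.8% were below the control. The count is therefore not an independent result about the complex. The largest differences were those of MTX2 (9.51 in the control and 9.08 after SiO2-NP), APOO (-0.24), APOOL (-0.18) and SAMM50 (-0.17), while the core subunit IMMT differed by 0.02 and MTX1 by 0.16.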
